A study of Mus musculus with 16 samples.

Results

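The genes described here are 10 transcription factors and membrane proteins that set up and repair skeletal muscle, followed by symbol among the 21923 genes of the deposited table and in every mouse. They are the paired box factors Pax3 and Pax7, the myogenic regulatory factors (MRFs) Myf5, Myod1, Myog and Myf6, the myocyte enhancer factors Mef2a, Mef2c and Mef2d, and the fusion protein Mymk. They were measured by poly(A) RNA-seq of gastrocnemius, the large calf muscle, in 16 mice, each sequenced as 1 library. The mice were 6 to 8 weeks old when they were purchased, and so older when the muscles were taken. There were 4 groups of 4 mice, named NOR, CAC, AM and KD. The NOR group had no tumor and was given PBS instead of cells and of drug. CAC mice carried an untreated subcutaneous tumor and received PBS. AM mice carried the same kind of tumor and received amiloride, a diuretic that also lowers exosome release, at 2 mg/kg each day from day 9. KD mice carried tumors grown from cells in which Rab27a and Rab27b, which act in exosome release, had been lowered by shRNA, and received PBS. The knock-down was in the tumor cells, so that Rab27 counts in muscle do not check it. All muscles were taken on day 30 after the inoculation. Replicates 1 and 2 of each group are labelled C57BL/6 mice, the host of LLC (lung carcinoma) cells, and replicates 3 and 4 BALB/c mice, the host of CT26 (colon carcinoma) cells, so that strain and tumor line change together.

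In adult muscle, Pax7 marks the satellite cells, the resident stem cells that lie against the fibres. Once these cells are activated, Myf5 and Myod1 commit them to the myogenic fate, Myog drives their differentiation, Mymk lets the membranes of the differentiating cells fuse, and Myf6 (also called MRF4) is the MRF that mature fibres express most. The MRFs are basic helix-loop-helix proteins that bind E-boxes in DNA together with E proteins, and the MEF2 factors work beside them. Myog, Myod1 and Myf6 are also transcribed in the nuclei of fibres, where denervation or disuse is known to alter them. In whole muscle, fewer cells of a type and less RNA per cell cannot be told apart.

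The libraries held 35913190 to 61032708 counts, and the least different of the 24 pairs of libraries within a group still differed by a chi-square per degree of freedom of 69.3, so that the mice differed by far more than counting error. Levels are given as CPM after TMM normalization, that is, as counts in proportion to library size, which compare 1 gene between mice. A gene was called a DEG in edgeR's quasi-likelihood F test if its FDR (Benjamini-Hochberg) was 0.05 or less over all genes tested, provided that its level changed at least 1.5-fold upward or fell to at most 0.667 of the compared group. The CPM of single genes was also compared by a two-sided exact permutation test, whose lowest possible p for 4 mice against 4 is 0.0286. Several libraries stood apart. With a 3-fold gap required, 0 genes separated the labelled strains, but 26 genes separated 4 libraries (AM replicates 1 and 3, CAC replicate 4 and KD replicate 1) from the other 12, among them Trim12a at 0 to 0.759 CPM against 5.28 to 21.2 CPM. Nnt, of which the C57BL/6J substrain carries a truncated allele, was at 94.7 to 315 CPM in these 4 libraries and 27.0 to 81.7 CPM in the others, and both sets hold mice of both labels. At a 3-fold gap no gene thus bore out the strain labels, which may not hold for every mouse. Values by strain are therefore values by label. The 9 genes of a lymphocyte list that were in the table summed to 0.428 to 2.69 CPM in 5 libraries (NOR replicate 1, CAC replicates 1 and 4, KD replicates 2 and 3) and to 33.9 to 399 CPM in the others, and 0 of the 9 were DEGs in CAC vs. NOR. The labels name male C57BL/6 mice and BALB/c mice of both sexes, the study's methods name male mice, and the sex of each mouse is not given. KD replicate 3 had 0 counts over 4 Y-linked genes, as a female mouse would, while the other 15 libraries had 4558 to 8438. Fits without the libraries low in Trim12a, fits without those with few lymphocyte counts and fits with the summed lymphocyte level as a covariate were added after the data were seen, and they are given where they changed a call of a member or of a gene of the lists around the members. Of the libraries low in Trim12a, CAC vs. NOR holds 1 (CAC replicate 4), AM vs. CAC 3 and KD vs. CAC 2. Of those with few lymphocyte counts, these comparisons hold 3, 2 and 4. In KD vs. CAC 0 members were called in edgeR with or without KD replicate 3.

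Per length, Mef2d and Myf6 were the most abundant of the 10 genes in NOR muscle, and Pax3 and Mymk were close to the limit of detection. In the deposited FPKM values, which divide by gene length and so allow levels to be compared between genes, the NOR means were 99.3 for Mef2d, 85.9 for Myf6, 55.6 for Mef2c, 37.9 for Mef2a, 26.4 for Myod1, 3.82 for Myog, 1.77 for Pax7, 1.38 for Myf5, 0.218 for Mymk and 0.0800 for Pax3. In CAC muscle Myf6 stood first, at 216 FPKM against 107 for Mef2d, and Mef2c (34.8) stood below Mef2a (46.3). All 10 genes are protein coding. In GRCm38, Myf6 (chr10:107492853-107494737) and Myf5 (chr10:107482908-107486134) lie next to each other on the minus strand of chromosome 10. Exons of Mef2a and Mef2d overlap genes on the opposite strand, and 5.31% and 8.27% of their 31-base words occur in other genes. It is not stated whether the counting used strand, so the values of these 2 genes are less certain than those of the other members.

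The promoter of Myog is shown because it is a classic model of how MRFs and MEF2 act on one another's genes, and that of Mef2c because Mef2c moved in the opposite direction. Both are the 250 bases before the RefSeq start site (RefSeq, GRCm38.p6), on the plus strand, Myog at chr1:134289754-134290003 and the first of 3 Mef2c windows at chr13:83503784-83504033. Capitals mark matches, on either strand, to the E-box CANNTG and to the core of the MEF2 motif (TA, then 4 bases that are A or T, then TA).
Myog promoter: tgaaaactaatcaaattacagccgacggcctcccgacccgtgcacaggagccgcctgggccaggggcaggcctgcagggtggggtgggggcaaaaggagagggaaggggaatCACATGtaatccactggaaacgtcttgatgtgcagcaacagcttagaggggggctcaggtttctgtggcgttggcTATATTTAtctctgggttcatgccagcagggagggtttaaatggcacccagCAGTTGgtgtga
Mef2c promoter, first window: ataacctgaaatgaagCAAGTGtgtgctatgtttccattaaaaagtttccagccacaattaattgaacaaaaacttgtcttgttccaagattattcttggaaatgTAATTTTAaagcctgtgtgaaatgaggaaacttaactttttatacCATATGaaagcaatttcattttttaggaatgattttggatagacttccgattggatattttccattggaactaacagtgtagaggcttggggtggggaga

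The Myog window held an E-box at positions -138 to -133 and another at -12 to -7, counted from the start site, with a MEF2 core match, TATATTTA, at -63 to -56. The Mef2c window held E-boxes at -234 to -229 and -100 to -95 and a MEF2 core match at -145 to -138. Windows were at hand for 6 of the 10 genes (8 windows), and those of Pax7, Myf5, Mef2a and Mef2d held none of these motifs. Of the other windows of Mef2c, one held none and the other an E-box alone, at -245 to -240 from its own start site. Of all 32851 promoter windows of this length, 66.2% held an E-box and 8.56% a MEF2 core match. The core form was searched after a longer MEF2 form of 10 bases, held by 2.92% of all windows, had matched 0 of the 8 windows. A match describes the letters only and says nothing on binding.

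Myf6, the MRF of mature fibres, was upregulated in every mouse of the CAC gastrocnemius. It was at 114, 110.0, 109.7 and 113 CPM in NOR replicates 1 to 4 and at 322, 247, 228 and 246 CPM in CAC replicates 1 to 4. The NOR mice lay within a few CPM of each other, and the lowest CAC mouse, replicate 3, was far above the highest NOR mouse. Relative to NOR, Myf6 was upregulated 2.32-fold (log2 fold change 1.22, SE 0.117, 95% confidence interval 0.95 to 1.48, edgeR FDR 0.00195, exact permutation p 0.0286, n = 4 per group). Myf6 stayed a DEG when any 1 mouse was left out, with log2 fold changes of 1.11 to 1.28. With all 16 libraries in 1 fit its FDR was 0.0533. In the mice labelled BALB/c alone (2 against 2), where 0 of 15059 genes were called, its log2 fold change was 1.12 at an FDR of 0.0954. Without the 3 libraries with few lymphocyte counts it was still called (1.13, FDR 0.0211).

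Myog, the differentiation factor, rose from a much lower level. It was at 6.42, 4.56, 5.91 and 6.70 CPM in NOR and at 9.10, 14.5, 9.27 and 22.3 CPM in CAC mice. All CAC mice lay above all NOR mice, but they spread over a wide range, with CAC replicate 4 the highest. Myog was upregulated 2.33-fold (log2 fold change 1.22, SE 0.302, interval 0.53 to 1.91, edgeR FDR 0.0323, exact permutation p 0.0286). This call was near the limit, since it was lost without NOR replicates 1, 2, 3 or 4 or CAC replicate 2 (FDR up to 0.0911). Over the fits without 1 mouse the log2 fold change stayed at 0.89 to 1.38. The call was also lost without the 3 libraries with few lymphocyte counts in this comparison, at a log2 fold change of 1.08 and an FDR of 0.0804.

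Myod1 and Myf5, the MRFs that act earlier in the sequence, did not pass the test. Myod1 was at 47.6, 32.0, 68.7 and 54.6 CPM in NOR and 35.15, 58.3, 40.1 and 37.9 CPM in CAC mice, and the ranges overlapped (log2 fold change -0.24, edgeR FDR 0.567). Its interval, and that of Myf5, included 0. Myf5 was at 3.49, 3.21, 1.86 and 3.30 CPM in NOR and 3.49, 2.60, 1.15 and 2.58 CPM in CAC mice (log2 fold change -0.29, edgeR FDR 0.648). CAC replicate 3 was the lowest mouse for Myf5 in these groups. The summed FPKM of the 4 MRFs was 107.6 to 126.6 in NOR and 235 to 267.5 in CAC muscle, and Myf6 made up 73.3% ± 5.203 (SD, n = 4) of it in NOR and 85.8% ± 3.57 in CAC.

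Mef2c, the MEF2 factor that is most tied to muscle differentiation, was downregulated. It was at 139, 107, 113 and 142 CPM in NOR and at 82.7, 95.9, 49.6 and 65.1 CPM in CAC mice. The highest CAC mouse, replicate 2, was below the lowest NOR mouse. Mef2c fell to 0.581 of the NOR level (log2 fold change -0.78, SE 0.2003, interval -1.24 to -0.33, edgeR FDR 0.0361, exact permutation p 0.0286). It stayed a DEG only without CAC replicate 2 among the 8 fits that left out 1 mouse, in which its log2 fold change was -0.93 to -0.62 and its FDR 0.0266 to 0.0835. Without CAC replicate 4, the one library low in Trim12a here, the log2 fold change was -0.73 at an FDR of 0.0787, and without the 3 libraries with few lymphocyte counts it was -0.71 at an FDR of 0.209.

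Mef2a and Mef2d did not pass the test. Mef2a was at 111, 121, 119.9 and 94.5 CPM in NOR and 151, 124, 103 and 127 CPM in CAC mice (log2 fold change 0.17, edgeR FDR 0.420). Mef2d was at 374, 297, 326 and 282 CPM in NOR and 329, 341, 278 and 318 CPM in CAC mice (log2 fold change -0.03, edgeR FDR 0.928). Both pairs of ranges overlapped. The summed FPKM of the MEF2 genes was 189 to 196 in NOR and 183 to 195 in CAC muscle, and within it the share of Mef2c was 28.8% ± 3.88 in NOR and 18.5% ± 3.03 in CAC.

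**Figure D1:**
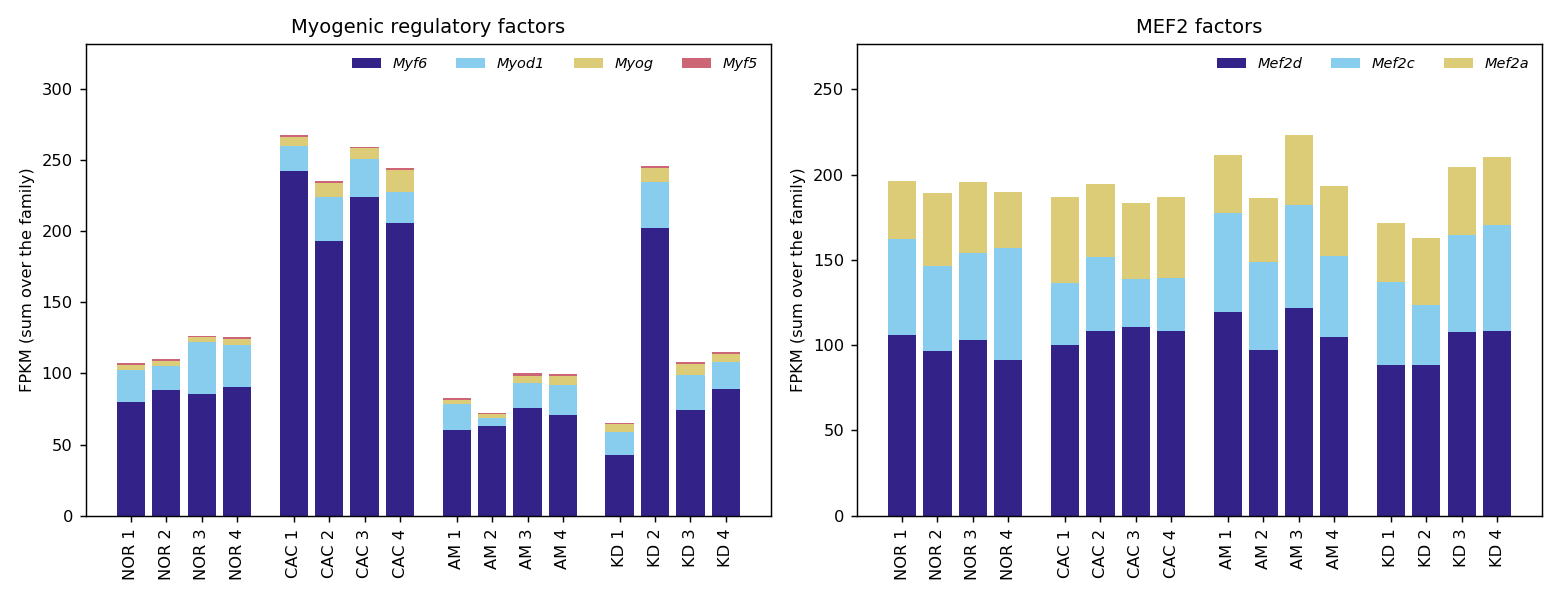
Stacked FPKM (y axis) of the 4 MRFs and of the 3 MEF2 genes in each of the 16 mice (x axis, by group and replicate). The MRF bars of the 4 CAC mice reached 235 to 267.5, above the 107.6 to 126.6 of NOR, through their Myf6 part, while the MEF2 bars of these groups were of like height with a smaller Mef2c part in CAC.

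Pax7, the satellite cell factor, was lower in every CAC mouse than in every NOR mouse but missed the FDR limit in the edgeR fit used here, and passed it in several others. It was at 8.88, 5.98, 6.62 and 6.34 CPM in NOR and 5.55, 3.45, 2.77 and 4.08 CPM in CAC mice. CAC replicate 1 came closest to the NOR range. The log2 fold change was -0.82 (SE 0.243, interval -1.38 to -0.27, edgeR FDR 0.0570, exact permutation p 0.0286). Pax7 passed the limit without CAC replicate 1 (log2 fold change -1.02, FDR 0.0405), by DESeq2 (FDR 0.0119), by limma-voom (FDR 0.0456) and with the lymphocyte covariate (-1.02, FDR 0.00581). It also passed in edgeR with upper-quartile scaling (FDR 0.0387), total counts only (FDR 0.0445), a filter of 1 CPM (FDR 0.0498) and all 16 libraries in 1 fit (FDR 0.0357). It did not with RLE scaling, no count filter or a strain term, without the 3 libraries with few lymphocyte counts (-0.99, FDR 0.0558) or without CAC replicate 4 (-0.84, FDR 0.0959). Pax3, the other paired box factor, had 7, 15, 13 and 27 counts in NOR and 2, 14, 14 and 0 counts in CAC libraries. Mymk, the fusion protein, had 24, 10, 3 and 20 counts in NOR and 16, 12, 12 and 18 counts in CAC libraries. At these counts neither gene gave a fold change that could be read.

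Of the 10 genes, 2 were upregulated and 1 was downregulated in CAC vs. NOR, where 4.32% of the 14666 genes tested were upregulated and 5.13% downregulated (9.45% together). Among the 10, 2 had all CAC mice above and 2 all CAC mice below the NOR mice, against 12.5% and 10.8% of all genes. The median log2 fold change of the 10 genes was -0.16, and that of all genes tested was 0.01. Markers of other cells moved with the same groups. Erythrocyte genes summed to 1003 to 1375 CPM in NOR and 3648 to 8722 CPM in CAC muscle, and 5 of 7 tested were upregulated. Genes of fibro-adipogenic cells summed to 5285 to 6651 CPM in NOR and 2170 to 3816 CPM in CAC muscle, where 2 of 8 (Col1a1 and Col3a1) were downregulated. Genes of skeletal fibres, which mark the labelled tissue, summed to 82523 to 117946 CPM in NOR and 42379 to 86428 CPM in CAC muscle. Of these 8 genes 1 was upregulated (Des) and none was downregulated, and of 8 endothelial genes 1 was upregulated (Pecam1), while 0 of 8 slow fibre, 0 of 8 fast fibre, 0 of 8 macrophage, 0 of 7 Schwann cell and 0 of 8 adipocyte genes were DEGs in edgeR (0, 1, 2, 0 and 0 with an unadjusted p below 0.05). Of the 8 skeletal fibre genes, 5 had a negative log2 fold change, 1 had all CAC mice above the NOR mice and 2 had all CAC mice below. DESeq2 called 3 skeletal fibre genes (Acta1, Des and Tnnc2), 2 endothelial genes (Kdr and Pecam1) and 1 fast fibre gene (Pvalb). It also called all 7 erythrocyte genes and 5 of the fibro-adipogenic genes, and 1921 of the 14666 genes tested. The part of these cells in the changes of the 10 genes was not tested.

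**Figure D2:**
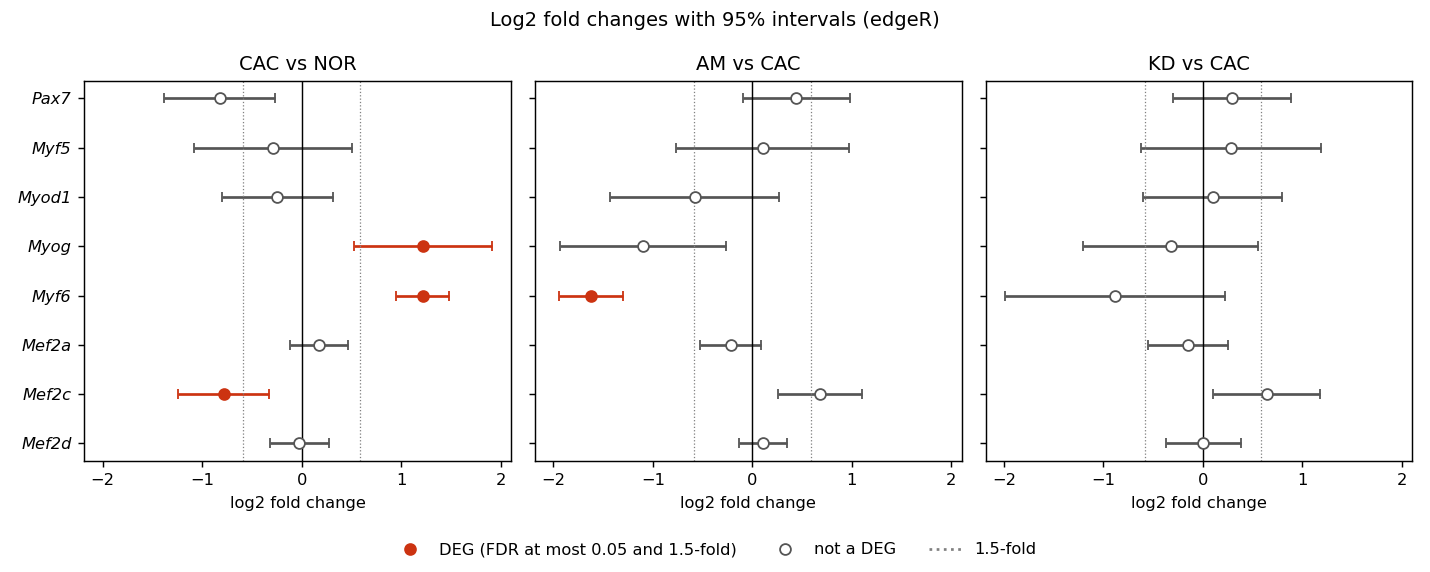
Log2 fold changes (x axis) with 95% confidence intervals for the members other than Pax3 and Mymk (y axis). They are against NOR for CAC, and against CAC for AM and KD, with filled points for DEGs. Myf6, at 1.22, -1.62 and -0.89, has a narrow interval in the first 2 comparisons and a wide one in KD vs. CAC.

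In AM muscle, Myf6 was far below its level in CAC muscle. It was at 68.9, 81.0, 95.8 and 92.6 CPM in AM mice, against 228 to 322 CPM in CAC mice. All AM mice were below all CAC mice and also below the lowest NOR mouse. Relative to CAC, Myf6 was downregulated to 0.325 of the level (log2 fold change -1.62, SE 0.142, interval -1.94 to -1.30, edgeR FDR 0.00223, exact permutation p 0.0286). It stayed a DEG without any 1 mouse (log2 fold change -1.68 to -1.52), without CAC replicates 1 and 4, which had few lymphocyte counts (-1.505, FDR 0.0362), and with the lymphocyte covariate (-1.51, FDR 0.00844). It did not without the 3 libraries low in Trim12a (CAC replicate 4 and AM replicates 1 and 3), where the log2 fold change was -1.63 at an FDR of 0.1004 and 0 of 14936 genes were called. Within the mice of either label, 2 against 2, the call was lost too (-1.91 at an FDR of 0.146 for C57BL/6 and -1.36 at an FDR of 0.155 for BALB/c). These fits called 0 of 14683 and 0 of 14893 genes.

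No other member passed the limits in AM vs. CAC. This comparison shares its CAC mice with CAC vs. NOR, so that their values are not independent. Mef2c was at 114, 113, 131 and 108 CPM in AM mice, above every CAC mouse (log2 fold change 0.68, SE 0.185, edgeR FDR 0.0758, exact permutation p 0.0286). DESeq2 gave Mef2c an FDR of 0.0103. Myog was at 4.12, 4.57, 7.63 and 9.35 CPM in AM mice, and its highest mouse, AM replicate 4, was just above the lowest CAC mouse (log2 fold change -1.10, SE 0.367, interval -1.94 to -0.26, edgeR FDR 0.125). DESeq2 called Myog too, at an FDR of 0.0372, among 1119 of the 14674 genes tested.

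Pax7 was at 4.49, 4.74, 6.66 and 5.56 CPM in AM mice, between the CAC and NOR means (log2 fold change against CAC 0.44, edgeR FDR 0.325). The ranges of Pax7 in AM and CAC mice overlapped. Myod1 was at 30.2, 10.6, 32.0 and 41.6 CPM in AM mice, with AM replicate 2 the lowest of all 16 (log2 fold change -0.58, edgeR FDR 0.423). For Myf5 (1.47 to 3.73 CPM), Mef2a (87.0 to 121 CPM) and Mef2d (307 to 379 CPM), AM and CAC mice overlapped, with log2 fold changes of 0.10, -0.22 and 0.11 and edgeR FDRs of 0.910, 0.408 and 0.619. Pax3 had 8 to 13 counts in AM libraries. Mymk had 0, 3, 0 and 47 counts, nearly all in AM replicate 4.

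Of the 10 genes, 0 were upregulated and 1 was downregulated in AM vs. CAC, against 1.63% and 2.03% of the 14674 genes tested (3.66% together). Among them 1 had all AM mice above the CAC mice and 1 all AM mice below, against 6.05% and 9.27% of all genes. The median log2 fold change was 0.03 for the 10 genes and 0.01 for all genes. In this comparison 0 of 7 erythrocyte genes were DEGs in edgeR or DESeq2, while Col1a1 and Col3a1 were both upregulated. Of 8 skeletal fibre genes 1, Des, was downregulated (log2 fold change -0.92, edgeR FDR 0.0205). The summed FPKM of the MRFs was 72.6 to 99.98 in AM muscle, with a Myf6 share of 76.8% ± 7.21, and the share of Mef2c in the MEF2 genes was 26.7% ± 1.31.

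In KD muscle no member passed the limits against CAC, and the 4 mice spread widely. Myf6 was at 47.5, 299.9, 107 and 110 CPM in KD mice. KD replicate 2 lay among the CAC mice and the other 3 lay among or below the NOR mice. The log2 fold change against CAC was -0.89 (SE 0.484, interval -1.99 to 0.22, edgeR FDR 0.543), and without KD replicate 2 it was -1.58 at an FDR of 0.0834. KD replicate 2 was also the highest KD mouse for Myog, Myod1, Myf5, Mef2a, Pax3 and Mymk. Its erythrocyte genes summed to 21228 CPM and its slow fibre genes to 7779 CPM, the highest sums of the KD mice, and it is among the 5 libraries with few lymphocyte counts.

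Mef2c was at 93.6, 89.8, 142 and 134 CPM in KD mice, against 82.7, 95.9, 49.6 and 65.1 CPM in CAC mice. The mice labelled C57BL/6 overlapped between the groups and those labelled BALB/c did not. Over all mice the log2 fold change was 0.64 (interval 0.10 to 1.179, edgeR FDR 0.378). Myog was at 6.67, 16.7, 12.95 and 7.91 CPM in KD mice (log2 fold change -0.32, edgeR FDR 0.831), and Pax7 at 4.36, 3.90, 6.14 and 5.06 CPM (0.29, edgeR FDR 0.756). For both, KD and CAC mice overlapped.

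Myod1 was at 26.5, 70.9, 51.7 and 34.8 CPM in KD mice, Myf5 at 1.71 to 4.30 CPM, Mef2a at 85.5 to 132 CPM and Mef2d at 241 to 380.1 CPM, all with ranges that overlapped those of CAC. Pax3 was not tested in KD vs. CAC because of its low counts (5, 22, 6 and 7), and Mymk had 24, 64, 6 and 16 counts. Of the 9 members tested 0 were DEGs in edgeR, and 0 by DESeq2, and 1 (Mef2c) had an unadjusted p below 0.05, against 0.00685% of the 14593 genes called in edgeR and 11.1% with such a p. DESeq2 called 340 of these genes and the joint edgeR fit of all 16 libraries 145 of 15220. No member had KD and CAC mice that did not overlap, as 7.29% of all genes did.

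Tumor-bearing mice with either intervention were also set against NOR mice and against each other, and no member passed the limits in edgeR or DESeq2. DESeq2 called 70 genes in AM vs. NOR, 31 in KD vs. NOR and 1 in AM vs. KD. In AM vs. NOR, 0 of 9 members and 0 of 14738 genes were called in edgeR (0% of all genes, with 9.19% below an unadjusted p of 0.05), while 14 genes were called without AM replicate 4 and 3 in mice labelled BALB/c alone. Myf6 was lower in every AM mouse than in every NOR mouse, as were 2.82% of all genes (84.6 ± 12.3 against 111.8 ± 2.26 CPM, mean ± SD, n = 4; log2 fold change -0.40, SE 0.105, edgeR FDR 0.518, exact permutation p 0.0286). The Myog means were 6.42 ± 2.50 and 5.90 ± 0.949 CPM and the Mef2c means 117 ± 10.1 and 125 ± 17.5 CPM in AM and NOR.

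In KD vs. NOR, 0 of 10 members and 0 of 14748 genes were called in edgeR, while 3.54% of all genes, and among the members Myog and Pax7, had an unadjusted p below 0.05 (0.0158 and 0.0356 by edgeR). The Myog mean was 11.1 ± 4.66 CPM and the Pax7 mean 4.87 ± 0.975 CPM in KD. The groups overlapped for every member, as they did for all but 2.26% of genes. In AM vs. KD, 0 of 10 members and 0 of 14745 genes were called in edgeR, with 1.11% of genes below an unadjusted p of 0.05 and 0.956% without overlap. The mean of Myf6 was 84.6 ± 12.3 CPM in AM and 141 ± 109.7 CPM in KD (log2 fold change -0.73, edgeR FDR 0.9996). The difference rested on KD replicate 2, without which the log2 fold change was -0.0552.

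The labelled strains were then compared within the contrasts. By the edgeR interaction of labelled strain and condition, 0 members and 0 genes reached an FDR of 0.05 for CAC against NOR, AM against CAC or KD against CAC, while 717, 1821 and 825 genes had an unadjusted p below 0.05. DESeq2 gave 125, 448 and 99 genes, among them 0 members in the first and second comparisons and 1 in KD vs. CAC, Mef2c. In CAC vs. NOR, the log2 fold changes of Myf6 were 1.34 in mice labelled C57BL/6 and 1.12 in mice labelled BALB/c, and those of Myog 1.11 and 1.34. Those of Mef2c were -0.46 and -1.13 and those of Pax7 -0.72 and -0.89, each with 2 mice against 2. In these fits Myf6 in C57BL/6 was the one member called. Of all genes, 247 of 14604 were called in C57BL/6 and 0 of 15059 in BALB/c. In AM vs. CAC, Myf6 and Mef2c had an unadjusted edgeR interaction p below 0.05 (0.0372 and 0.0242), as did 12.4% of all genes tested, with log2 fold changes of -1.91 and -1.36 for Myf6. In KD vs. CAC, Mef2c had the lowest interaction p of the members (0.00415, edgeR FDR 0.854), where 5.65% of all genes were below 0.05. DESeq2 gave it an interaction FDR of 0.0194. The log2 values were 0.07 in mice labelled C57BL/6 and 1.24 in mice labelled BALB/c.

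Around the members stand genes that mark satellite cells, bind the MRFs, hold them back or respond to them. Of 14 satellite cell surface and Notch genes tested in CAC vs. NOR, 1 was upregulated and 0 were downregulated (median log2 fold change -0.04). The one was Cdh15, which encodes M-cadherin, at 40.5, 28.7, 28.1 and 20.1 CPM in NOR and 57.9, 49.9, 52.1 and 75.6 CPM in CAC mice (log2 fold change 0.99, edgeR FDR 0.0267). It was downregulated in AM vs. CAC (log2 fold change -0.80, edgeR FDR 0.0457), a call that was lost in 7 of the 8 fits without a mouse (FDR up to 0.119). Its call in CAC vs. NOR was lost without NOR replicates 2 or 3 or CAC replicates 1 or 4 (FDR up to 0.0786). DESeq2 called 2 of the 14 genes in CAC vs. NOR, Cdh15 and Calcr. Calcr went the other way, at 1.22, 1.17, 1.23 and 0.928 CPM in NOR and 0.367, 0.515, 0.185 and 0.822 CPM in CAC mice.

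Of 12 partners of the MRFs, such as E proteins and coactivators, 0 were DEGs in edgeR in CAC vs. NOR or AM vs. CAC (3 and 2 with an unadjusted p below 0.05), with a median log2 fold change of -0.07 in CAC vs. NOR. Kat2b, the acetyltransferase PCAF that works with Myod1, came closest, with all CAC mice above all NOR mice but a fold change under the limit (log2 fold change 0.55, edgeR FDR 0.0141). Its value in AM vs. CAC was -0.57 (edgeR FDR 0.0111). With total counts only both values passed the fold limit (0.68, edgeR FDR 0.00453, and -0.63, edgeR FDR 0.0168). Smarcd3, the chromatin remodelling subunit BAF60C, had a log2 fold change of -0.58 in CAC vs. NOR (edgeR FDR 0.0787), and it was called by DESeq2 (-0.59, FDR 0.0257) and with a strain term (-0.60, edgeR FDR 0.0295).

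Of 14 inhibitors of the MRFs and MEF2, 1 was upregulated and 3 were downregulated in CAC vs. NOR (median log2 fold change -0.42), and 3 were upregulated and 0 downregulated in AM vs. CAC (median 0.23). Bhlhe41, a helix-loop-helix repressor that can block Myod1, was at 69.0, 46.7, 95.7 and 60.8 CPM in NOR, 18.0, 23.3, 15.3 and 15.3 CPM in CAC, 63.8, 48.2, 99.4 and 62.4 CPM in AM and 77.2, 38.8, 43.0 and 77.7 CPM in KD mice. All CAC mice were below the mice of the other 3 groups. On the log2 scale the fold change was -1.93 against NOR in CAC (SE 0.235, edgeR FDR 0.00337), and against CAC it was 1.93 in AM (edgeR FDR 0.00759) and 1.72 in KD (edgeR FDR 0.146).

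The related repressor Bhlhe40 had log2 fold changes of -0.61 in CAC vs. NOR (edgeR FDR 0.0424) and 0.99 in AM vs. CAC (edgeR FDR 0.00937). Hdac9, a class II histone deacetylase that binds MEF2 and holds it inactive, had -0.82 (edgeR FDR 0.0275) and 0.88 (edgeR FDR 0.0163). Id3, which binds E proteins and so keeps them from the MRFs, went the other way, with 0.71 in CAC vs. NOR (edgeR FDR 0.0267) and -0.62 in AM vs. CAC (edgeR FDR 0.0651). In CAC vs. NOR the call of Bhlhe40 held in 1 of the 8 fits without a mouse, that of Hdac9 in 2 and that of Id3 in 3, and that of Bhlhe41 in all 8. In AM vs. CAC the calls of Bhlhe40 and Bhlhe41 held in all 8, and that of Hdac9 was lost without CAC replicate 1 or AM replicates 3 or 4 (FDR up to 0.0546).

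Of 8 fusion and newly formed fibre genes tested, 1 was upregulated and 1 downregulated in CAC vs. NOR (median log2 fold change -0.01). Actc1, the cardiac actin that muscle makes during development and repair, was at 1443, 453, 541 and 473 CPM in NOR and 27.5, 30.9, 6.40 and 6.86 CPM in CAC mice (log2 fold change -5.38, SE 0.749, edgeR FDR 0.00476). In AM mice it was at 37.4, 349, 106 and 1378 CPM and in KD mice at 490.2, 64.3, 688 and 969 CPM, above every CAC mouse but with a wide spread. Against CAC the log2 fold change was 4.72 in AM (edgeR FDR 0.0588) and 4.94 in KD (edgeR FDR 0.231), and the AM value fell to 3.19 without AM replicate 4. DESeq2 and the joint fit of 16 libraries called Actc1 in AM vs. CAC (FDR 0.000446 and 0.0466). Tnnt2, the cardiac troponin T, was upregulated in CAC vs. NOR (log2 fold change 0.60, edgeR FDR 0.0447), a call that held in 1 of the 8 fits without a mouse.

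Of 9 synapse genes under E-box control tested, 2 were upregulated and 1 was downregulated in CAC vs. NOR (median log2 fold change 0.18). Musk, the receptor kinase of the neuromuscular synapse, was at 20.7, 16.8, 21.9 and 24.5 CPM in NOR and 53.1, 41.1, 26.2 and 39.8 CPM in CAC mice (log2 fold change 0.93, edgeR FDR 0.0213). Chrnb1, an acetylcholine receptor subunit, was upregulated (1.00, edgeR FDR 0.0274), and Ache, the esterase that clears acetylcholine, was downregulated (-1.17, edgeR FDR 0.0318). Without 1 mouse the call was lost in 2 of 8 fits for Musk, 5 of 8 for Chrnb1 and 6 of 8 for Ache. In AM vs. CAC 0 of these genes were DEGs in edgeR, where 4 of 9 had an unadjusted p below 0.05. DESeq2 called Musk (-0.98, FDR 0.0058) and Chrnb1 (-0.71, FDR 0.0255), and edgeR with total counts only called Musk (-1.03, FDR 0.0389).

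Of 10 MEF2 target genes, 0 were upregulated and 2 were downregulated in CAC vs. NOR (median log2 fold change -0.26). Nr4a1, a nuclear receptor, was at 222, 189, 275.5 and 194 CPM in NOR and 113, 112, 63.9 and 94.8 CPM in CAC mice (log2 fold change -1.21, edgeR FDR 0.00847). Smyd1, a methyltransferase of muscle that serves sarcomere assembly, was at 673, 551, 583 and 527 CPM in NOR and 334, 351, 193 and 271 CPM in CAC mice (-1.03, edgeR FDR 0.0130). Both calls held in every fit without 1 mouse, and that of Nr4a1 was lost in the joint fit of 16 libraries (-1.20, edgeR FDR 0.0778). In AM vs. CAC DESeq2 called both genes upward (Nr4a1 0.93, FDR 0.0382, and Smyd1 0.70, FDR 0.0280). Xirp1, a protein of injured and remodelling fibres, was downregulated in AM vs. CAC (-1.12, edgeR FDR 0.0442), a call that held in 1 of 8 fits without a mouse. In KD vs. CAC 0 genes of these 6 lists were DEGs in edgeR and 13 had an unadjusted p below 0.05. DESeq2 called 5 genes of the lists (Hes1, Bhlhe40, Bhlhe41, Actc1 and Ache). Of all 14593 genes, edgeR called 0.00685% and gave 11.1% such a p, and DESeq2 called 340.

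Most of these calls were lost when the libraries with few lymphocyte counts were left out. Such fits hold fewer mice, with CAC replicates 2 and 3 alone as the CAC group. The part of the number of mice in the losses was not tested. In CAC vs. NOR, without NOR replicate 1 and CAC replicates 1 and 4, 398 of 15159 genes were called, against 1386 of 14666 with all mice. Of the 12 DEGs of the lists, the call held for Actc1 (log2 fold change -4.70, edgeR FDR 0.0382). The other 11 lost it, among them Bhlhe41 (-1.79, edgeR FDR 0.0584), Cdh15 (1.03, edgeR FDR 0.0502), Musk (0.71, edgeR FDR 0.148), Nr4a1 (-1.30, edgeR FDR 0.0745) and Smyd1 (-0.998, edgeR FDR 0.0969), in the direction they had in all mice. Kat2b gained one (0.64, edgeR FDR 0.0382). Without CAC replicate 4, the one library low in Trim12a in CAC vs. NOR, 6 calls were lost (edgeR FDR 0.0541 to 0.0861). They were Cdh15 (0.85), Id3 (0.64), Bhlhe40 (-0.63), Tnnt2 (0.54), Chrnb1 (0.93) and Ache (-1.01), in the direction they had in all mice. Kat2b was called in this fit (0.59, edgeR FDR 0.0175). In AM vs. CAC the 5 DEGs of the lists all lost their call without CAC replicates 1 and 4. There 18 of 15150 genes were called, against 537 of 14674 with all mice. All 5 also lost it without the 3 libraries low in Trim12a, where 0 of 14936 genes were called. In these fits, in this order, Bhlhe41 was at 1.82 (edgeR FDR 0.0819) and 1.54 (edgeR FDR 0.1004), and Bhlhe40 at 0.97 (edgeR FDR 0.0890) and 0.94 (edgeR FDR 0.132). With the lymphocyte covariate the calls of Bhlhe40 (-0.58) and Tnnt2 (0.56) in CAC vs. NOR and of Cdh15 (-0.75) and Xirp1 (-1.15) in AM vs. CAC were lost. These log2 fold changes were close to those without the covariate. Smarcd3 was called in CAC vs. NOR with it (-0.69, edgeR FDR 0.0320). Within the mice of either label, 2 against 2, the 12 DEGs of the lists in CAC vs. NOR and the 5 in AM vs. CAC all lost their call. Of all genes in CAC vs. NOR, 247 of 14604 were called in C57BL/6 and 0 of 15059 in BALB/c. In AM vs. CAC 0 genes were called in either label. The joint fit of 16 libraries ended those of Id3, Hdac9, Bhlhe40, Tnnt2, Chrnb1 and Nr4a1 in CAC vs. NOR and of Cdh15, Hdac9 and Xirp1 in AM vs. CAC. DESeq2 called 19 genes of the lists in CAC vs. NOR and 13 in AM vs. CAC, against the 12 and 5 of edgeR. Of all genes it also called more, 1921 of 14666 and 1119 of 14674, against 1386 and 537 by edgeR.

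**Figure D3:**
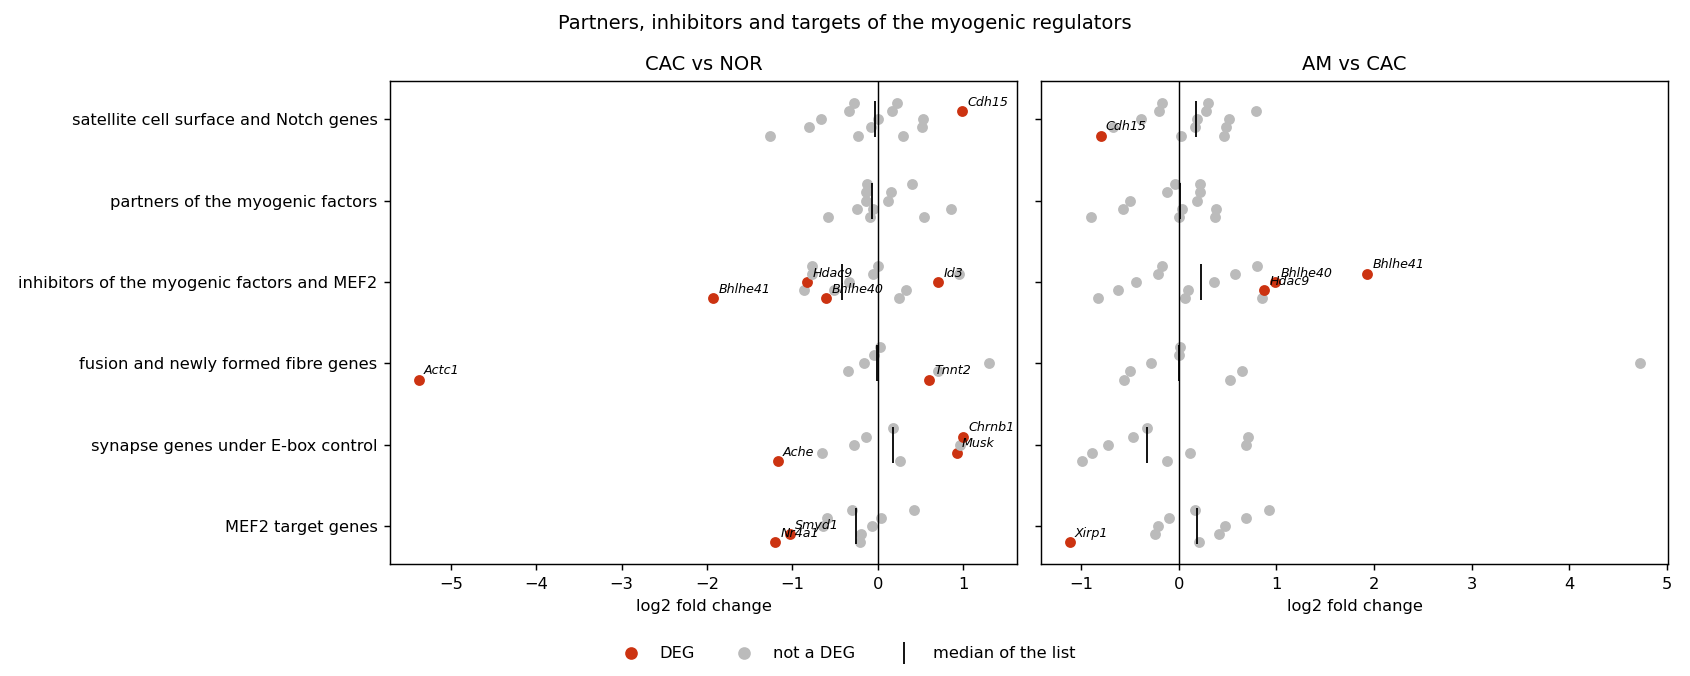
Log2 fold changes (x axes) of each gene of the 6 lists around the members (y axes, by list) in CAC vs. NOR and AM vs. CAC, with filled points for DEGs. Bhlhe41 stands at -1.93 and 1.93, and Actc1 at -5.38 and 4.72, the latter not a DEG (edgeR FDR 0.0588).

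The genes whose pattern over the 16 libraries was most like that of a member were found by Pearson's r of log2 CPM among 13189 genes. The points share groups and libraries, so that these r values are descriptions. For Myf6 they were Psma3 (r 0.98), Rps27l (0.96) and Phospho1 (0.96), and for Mef2c Kcna7 (0.94), Rgma (0.94) and Jph2 (0.93). For Myog they were Amotl2 (0.91), Syn2 (0.91) and Ppp2ca (0.89), for Pax7 Ppp1r26 (0.90), Crispld1 (0.89) and Abcb10 (0.88), and for Myod1 Urgcp (0.84), Nudcd1 (0.82) and Tmem251 (0.80). For Myf5 they were Higd2a (0.86), Rab24 (0.83) and Cox6c (0.82), for Mef2a Rab18 (0.92), Efcab2 (0.92) and Ppp1r2 (0.91), and for Mef2d Casz1 (0.93), Maea (0.89) and Lsm14b (0.88). Among the members, Myf6 had r of 0.69 with Myog and 0.70 with Mef2a, Mef2c had r of 0.77 with Pax7, and Myf6 and Mef2c had r of -0.56.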

How the data were processed

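Poly(A) RNA of gastrocnemius from 16 mice was sequenced, and the authors deposited 1 table with whole-number read counts per gene, not normalized, and FPKM per gene and library. The submitters' processing notes list fastp, Bowtie2, HISAT2, StringTie 1.3.1 and the builds mm9 and GRCm38. Their roles, the counting tool and its use of strand are not given in the sources used here. Columns were mapped to mice by name, and 3719 genes had 0 counts in every library. Positions came from GENCODE M21 (GRCm38), in which 21905 identifiers matched.

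Counts were compared with edgeR 4.0.16 in R 4.3.3 (quasi-likelihood F test after TMM scaling), fitted to the 8 libraries of each contrast without covariates. The filter was filterByExpr at min.count 10 and min.total.count 15. Log2 CPM used a prior count of 2. Alternatives were other scalings, DESeq2 1.42.0, limma-voom (limma 3.58.1), other count filters and fold limits, a term for labelled strain or for replicate number, a joint fit of the 16 libraries, fits within a labelled strain and fits without 1 mouse. A lymphocyte score as a term, and fits without the libraries low in Trim12a or in lymphocyte counts, were chosen after seeing the data. The members and gene lists were chosen with earlier results of these data known. The genes named are all members, every DEG of the lists in CAC vs. NOR, AM vs. CAC or KD vs. CAC, the 2 genes of lowest p in a list without one, and the 3 genes of most like pattern for each member. Some genes called by DESeq2 alone are named as well. Marker lists are given by counts and sums, and Pax3 and Mymk by counts. Scripts were tested on simulated data. Some genes of the lists are not reported here.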

Additional observations from a re-analysis of the deposited data

Results flagged for a closer look

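Over 40 sets of 4 mice (10 members in 4 groups), the gap of the most extreme mouse to its neighbour, divided by the range of the group, was above the 95% critical value of Dixon's test in 2 sets. Chance gives about 1 in 20. Pax3 was highest in KD replicate 2, at 0.546 CPM against 0.0969 to 0.128 CPM in the other KD mice (gap over range 0.930). Mymk was highest in AM replicate 4, at 1.01 CPM against 0 to 0.0847 CPM in the other AM mice (gap over range 0.916). Both rest on few counts.

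In KD vs. CAC, Mef2d moved in opposite directions in the labelled strains. Both KD mice labelled BALB/c were above both such CAC mice, with a difference of 57.5 CPM between the means, and both KD mice labelled C57BL/6 were below, with a difference of -53.2 CPM. The interaction did not pass (edgeR p 0.197, FDR 0.866).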

How the results depend on the processing

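In CAC vs. NOR, 3 members were called. Pax7 was called as well with upper-quartile scaling, total counts only, DESeq2, limma-voom, the 1 CPM filter and the lymphocyte covariate, so that the count was 4, and it took the place of Myf6 in the joint fit of 16 libraries. The count was 1 in mice labelled C57BL/6 alone (Myf6), 0 in mice labelled BALB/c alone, 1 without the 3 of its libraries with few lymphocyte counts (Myf6) and 1 to 3 when 1 mouse was left out, being 1 (Myf6) without any NOR mouse. In AM vs. CAC, 1 member was called, against 2 with total counts only (Myf6 and Mef2c), 3 by DESeq2 (Myf6, Mef2c and Myog) and 0 without the 3 of its libraries low in Trim12a, in C57BL/6 alone and in BALB/c alone. Of all genes, DESeq2 called 1921 of 14666 in CAC vs. NOR and 1119 of 14674 in AM vs. CAC, against 1386 and 537 by edgeR. Within the labels edgeR called 247 genes (C57BL/6) and 0 (BALB/c) in CAC vs. NOR, and 0 in AM vs. CAC. DESeq2 gave 1 member with a strain interaction in KD vs. CAC (Mef2c). The causes were not tested, except that the fits within a labelled strain have 2 mice against 2. Total counts moved the median of all genes by 0.125 in CAC vs. NOR and -0.115 in KD vs. CAC (log2). Of 612 member values recomputed, 540 kept their direction and side of the limits, 27 lost a call, 12 gained one and 33 changed sign. None of the sign changes was in a DEG.

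Same-numbered mice were not a pairing, since their deviations correlated at -0.70 to 0.68 over 24 pairs, with 7 above 0.1 and 4 best with their own number. With the replicate block, 2 members were called in CAC vs. NOR (Myf6 and Pax7, the latter at FDR 0.0402), 0 in AM vs. CAC (Myf6, log2 fold change -1.62, FDR 0.0793) and 0 in KD vs. CAC, where Mef2d had a log2 fold change of -0.00878. Of the list genes, Cdh15, Id3, Hdac9, Bhlhe40 and Tnnt2 lost their call in CAC vs. NOR and all 5 DEGs in AM vs. CAC (Bhlhe41 at FDR 0.118, Bhlhe40 at FDR 0.123), where 0 of 14674 genes were called with the block.

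The log2 fold changes that changed sign were these. In C57BL/6 alone they were 0.24 for Myod1 in CAC vs. NOR, -0.55 for Myf5, -0.0444 for Mef2d, -0.16 for Smarcd3 and -0.0398 for Ache in AM vs. CAC, and -0.0944 for Pax7, 0.0111 for Myog and -0.22 for Mef2d in KD vs. CAC. In BALB/c alone they were -0.10 for Xirp1 in CAC vs. NOR, 0.0273 for Mef2a in AM vs. CAC, 0.0324 for Mef2a in KD vs. CAC and -0.0420 for Myf6 in KD vs. NOR. With total counts only they were 0.11 for Mef2d in CAC vs. NOR and -0.0744 for Myod1 and -0.12 for Mef2d in KD vs. CAC. Upper-quartile scaling gave -0.0185 for Xirp1 in CAC vs. NOR, and limma-voom and the strain covariate gave -0.0117 and -0.00145 for Mef2d in KD vs. CAC. With the lymphocyte covariate Myod1 was at -0.00954 and Mef2d at -0.0208 in KD vs. CAC. Without the libraries low in Trim12a they were -0.21 for Xirp1 in CAC vs. NOR (where this leaves out CAC replicate 4 alone, as 1 of the fits without 1 mouse does), -0.23 for Myf5 in AM vs. CAC and 0.20 for Myog in KD vs. CAC. Without the libraries with few lymphocyte counts they were 0.0654 for Mef2d and -0.16 for Xirp1 in CAC vs. NOR and -0.71 for Myod1 and -0.14 for Mef2d in KD vs. CAC. Without 1 mouse, the range was -0.0898 to 0.0840 for Mef2d and -0.21 to 0.23 for Xirp1 in CAC vs. NOR, -0.12 to 0.31 for Myf5 in AM vs. CAC, -0.20 to 0.28 for Myod1, -0.60 to 0.00923 for Myog and -0.0833 to 0.11 for Mef2d in KD vs. CAC, and -0.34 to 0.63 for Myf6 in KD vs. NOR. Pax3 and Mymk, with 0 to 64 counts per library, and calls with 2 mice against 2 are limited by depth and by the number of mice.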
